A study of Mus musculus with 2 samples.

Results

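Mir148a, Mir148b and Mir152 are the 3 mouse genes whose main mature miRNAs share the miR-148 and miR-152 seed, the stretch near the 5′ end of a miRNA that pairs with messenger RNAs. They were taken by name from 1973 annotated miRNA genes counted in small RNA of the embryonic mouse forebrain, and all 3 were found in both libraries. The samples formed 1 group, the forebrain of B6NCrl embryos at embryonic day 14.5, with 2 biological replicates, no treatment and no second tissue or age, so levels could be described but conditions could not be compared. Each library is labelled as a single forebrain, yet also as pooled from males and females, and both carry the same donor identifier. The forebrains were collected on different days, however, so the labels do not settle how far the spread between the libraries is technical.

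A miRNA is cut from a hairpin precursor, loaded into an Argonaute protein and guided by its seed to sites that lie mostly in the 3′ untranslated regions of messenger RNAs, whose output it lowers. The miR-148 and miR-152 family is best known for targeting Dnmt1, the enzyme that copies DNA methylation patterns after replication. Mir148a is also known for its abundance in liver and for restraining pro-apoptotic genes in B cells. Mir148b and Mir152 lie inside Copz1 and Copz2, paralogous genes that encode the zeta subunit of the COPI vesicle coat.

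The 3′ arms carry the shared seed and are shown first, in RNA letters 5′ to 3′ with bases 2 to 8, the seed, in capitals. The sequences are from RefSeq on build GRCm38.p6, where all 3 genes were matched by symbol.
mmu-miR-148a-3p: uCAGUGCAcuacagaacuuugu
mmu-miR-148b-3p: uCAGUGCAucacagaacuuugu
mmu-miR-152-3p: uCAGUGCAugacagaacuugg

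No other sequence among the 1738 mature miRNAs of that table had this seed. Counted from 1 at the 5′ end, miR-148a-3p and miR-148b-3p differed by C9U and U10C and matched at 20 of 22 bases. Between miR-148b-3p and miR-152-3p the differences were C10G and U20G, with 19 of 21 bases identical. Between miR-148a-3p and miR-152-3p they were C9U, U10G and U20G, with 18 of 21 identical. The members thus shared their first 8 bases and parted just after the seed, at positions 9 and 10, with a further change near the 3′ end of miR-152-3p.

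The 5′ arms, printed the same way to show that the likeness does not extend to a common seed on this side, split the family.
mmu-miR-148a-5p: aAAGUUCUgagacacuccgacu
mmu-miR-148b-5p: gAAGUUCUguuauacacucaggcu
mmu-miR-152-5p: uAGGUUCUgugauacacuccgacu

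The 5′ arms of Mir148a and Mir148b shared a seed that no other mature miRNA of the table had, and that of Mir152 had a seed of its own. The deposited counts belong to the whole hairpin locus, so the arms could not be separated, and which arm gave the reads was not measured here.

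The hairpins, with the 3′ arm in capitals, show where that arm sits.
Mir148a: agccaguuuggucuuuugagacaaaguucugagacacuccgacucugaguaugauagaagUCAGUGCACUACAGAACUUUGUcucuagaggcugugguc
Mir148b: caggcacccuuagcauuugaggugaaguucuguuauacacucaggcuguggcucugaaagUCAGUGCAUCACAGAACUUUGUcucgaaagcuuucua
Mir152: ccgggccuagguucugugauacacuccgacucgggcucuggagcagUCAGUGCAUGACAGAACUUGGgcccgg

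The 3′ arm occupied bases 61 to 82 of the Mir148a and Mir148b hairpins and bases 47 to 67 of the shorter Mir152 hairpin. Between the 5′ and 3′ arms lay 16 bases in Mir148a, 13 in Mir148b and 15 in Mir152. The longest run of identical bases was 15 between the Mir148a and Mir148b hairpins, 12 between Mir148a and Mir152, and 11 between Mir148b and Mir152. The run shared by Mir148a and Mir152 lies outside the 3′ arm, in the 5′ arm and the loop. Against the other 1004 hairpins of the table, searched on both strands, no run was longer than 15 bases for Mir148a and Mir148b, each with the other, or 13 for Mir152, and no other hairpin contained a mature 3′ arm of the family. This bears on the counts, because only reads that mapped to 1 place were assigned to a gene. The rest of the genome was not searched, and how many reads of the members were set aside as mapping to several places was not measured.

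On mm10, Mir148a (ENSMUSG00000065505.1) lies at chr6:51269812-51269910 on the minus strand. It overlaps no other annotated gene, and the nearest is the long non-coding RNA gene Gm32479, 13.6 kb away, with the nearest protein-coding gene, Nfe2l3, 162.8 kb away. Mir148b (ENSMUSG00000065560.1) lies at chr15:103285125-103285221 on the plus strand, in intron 1 of Copz1 in all 4 Copz1 transcripts that span it. Mir152 (ENSMUSG00000065515.1) lies at chr11:96850393-96850465 on the plus strand, in intron 1 of Copz2 in all 3 transcripts that span it. The host introns differ in size, with 16159 bases in Copz1 and 676 bases in Copz2, and Mir152 begins 396 bases into its intron. No member has a miRNA neighbour close enough to share a short primary transcript, the nearest being Mir6963 at 65.2 kb from Mir148b, Mir8103 at 213.3 kb from Mir152 and Gm22914 at 351.7 kb from Mir148a. The host messenger RNAs were not measured in these small RNA libraries.

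Libraries held 18598385 reads in replicate 1 and 20638071 in replicate 2, of which 7080317 and 7946585 went to miRNA genes in the sense direction. Levels are given as CPM, the count per 1000000 of these assigned counts, and a single count is worth 0.141 and 0.126 CPM in replicates 1 and 2. Detection meant at least 10 counts in each library, which 399 genes (20.2%) reached. Reads that mapped to several places made up 43.3% and 42.2% of the reads and belong to no gene. The profiles were close (Pearson's r of 0.995 on log2(CPM + 1) across 445 genes, which are not independent replicates) but not identical within sampling noise (chi-square 91022, 444 degrees of freedom), which a library deposited in duplicate would be. Of 21 miRNA genes that mark neural tissue, 20 were detected, led by Mir137, a miRNA of neurons, at 7614 ± 481 CPM (SD, n = 2). The same list held low genes, with Mir124a-1, Mir124a-2 and Mir124a-3 at 2.21, 1.78 and 0.463 CPM. Mir9-2 was low as well, at 5.00 CPM, whereas Mir9-3 stood at 595 CPM. Whether genes of this list share a mature sequence with another locus was not checked. Reads of such a sequence would map to several places and be lost, so these low values do not show absence. Markers of other tissues were detected as well, so detection alone does not set the neural list apart.

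All 3 members were detected, and their levels lay far apart. Mir148b was highest, with 2058 counts in replicate 1 and 1745 in replicate 2. These are 291 CPM (95% exact Poisson interval 278 to 304) and 220 CPM (209 to 230). The intervals do not overlap, and Mir148b averaged 255 ± 50.3 CPM (SD, n = 2), the 135th highest level of all genes. Intervals here and below cover counting error only, since PCR copies are not independent molecules.

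Mir148a had 913 counts in replicate 1 and 831 in replicate 2. These are 129 CPM (95% exact Poisson interval 121 to 138) and 105 CPM (97.6 to 112). Its mean was 117 ± 17.2 CPM (SD, n = 2), at rank 183, and again replicate 1 stood above replicate 2 with intervals that do not overlap. Mir148a is known as a major liver miRNA, and in the forebrain Mir148b had more counts than Mir148a in both libraries.

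Mir152 had 126 counts in replicate 1 and 130 in replicate 2. These are 17.8 CPM (95% exact Poisson interval 14.8 to 21.2) and 16.4 CPM (13.7 to 19.4). The intervals overlap, the mean was 17.1 ± 1.02 CPM (SD, n = 2) at rank 274, and the level stood well above the floor of 3 counts, which is 0.424 and 0.378 CPM in replicates 1 and 2. No member had a single count on the strand opposite to the gene in either library.

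**Figure D1:**
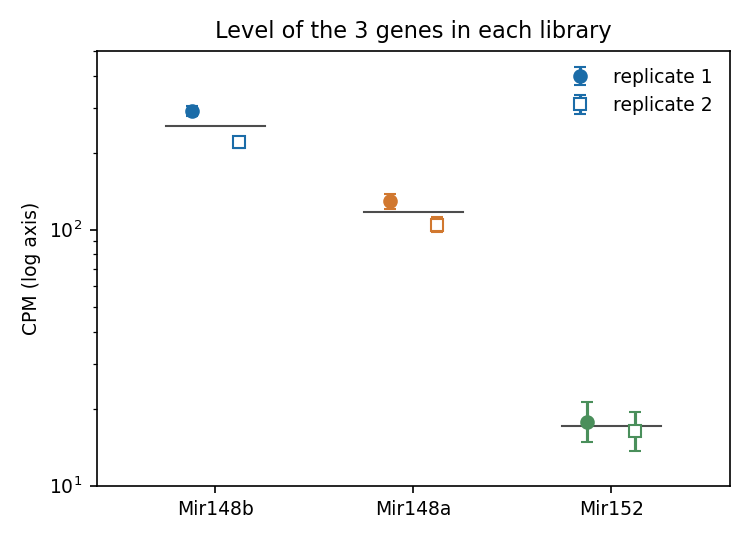
CPM of Mir148b, Mir148a and Mir152 on a log axis, with filled circles for replicate 1, open squares for replicate 2, bars for the 95% exact Poisson interval and a line at the mean. Mir148b lies between 220 and 291 CPM, Mir148a between 105 and 129 CPM and Mir152 between 16.4 and 17.8 CPM, so the 3 genes do not overlap.

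The order Mir148b, Mir148a, Mir152 was the same in both libraries, and no 2 members overlapped in CPM. Mir148b had 2.25 counts for each count of Mir148a in replicate 1 (95% exact binomial interval 2.08 to 2.44) and 2.10 in replicate 2 (1.93 to 2.28). Mir148a had 7.25 counts for each count of Mir152 in replicate 1 (6.01 to 8.80) and 6.39 in replicate 2 (5.31 to 7.75). Between the ends of the order, the ratio of Mir148b to Mir152 was 16.3 in replicate 1 (13.6 to 19.7) and 13.4 in replicate 2 (11.2 to 16.2). Within each pair the intervals of the 2 libraries overlapped, and a difference of these ratios between the libraries was not tested. These are ratios of counts per locus. Whether different sequences enter a library in proportion to their amounts in the tissue was not measured. Per 100 bases of annotated gene, with lengths of 97 bases for Mir148b, 99 for Mir148a and 73 for Mir152, the mean levels were 263, 118 and 23.4 CPM, and the order did not change.

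The members together held 3097 counts in replicate 1 and 2706 in replicate 2, or 0.0437% of the assigned miRNA counts (95% exact binomial interval 0.0422 to 0.0453) and 0.0341% (0.0328 to 0.0354). The mean share was 0.0389% ± 0.00685 (SD, n = 2). Within the family Mir148b held 66.4% of the counts in replicate 1 (95% exact binomial interval 64.8 to 68.1) and 64.5% in replicate 2 (62.7 to 66.3). Mir148a held 29.5% (27.9 to 31.1) and 30.7% (29.0 to 32.5), and Mir152 held 4.07% (3.40 to 4.82) and 4.80% (4.03 to 5.68). The make-up needs no scaling between libraries, and for each member the intervals of replicates 1 and 2 overlapped.

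**Figure D2:**
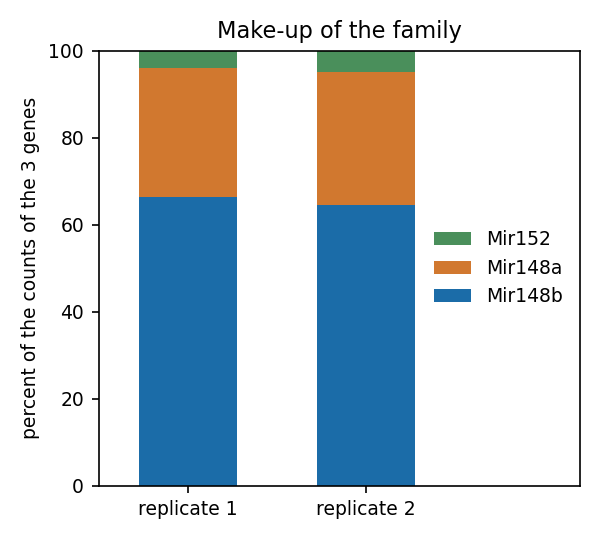
Percent of the summed counts of the 3 genes held by Mir148b, Mir148a and Mir152 in replicate 1 and replicate 2. About 2 of 3 counts came from Mir148b in both libraries, and Mir152 held under 5% in each.

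Among the 399 detected genes, 66.2% had a lower mean level than Mir148b, 54.1% a lower one than Mir148a and 31.3% a lower one than Mir152, so the family spanned the middle of the range rather than its top. The median detected gene stood at 81.0 CPM, between Mir148a and Mir152. The range of CPM over the libraries overlapped that of 27 other genes for Mir148b, 18 for Mir148a and 12 for Mir152, and these genes cannot be placed above or below the member beyond the spread.

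**Figure D3:**
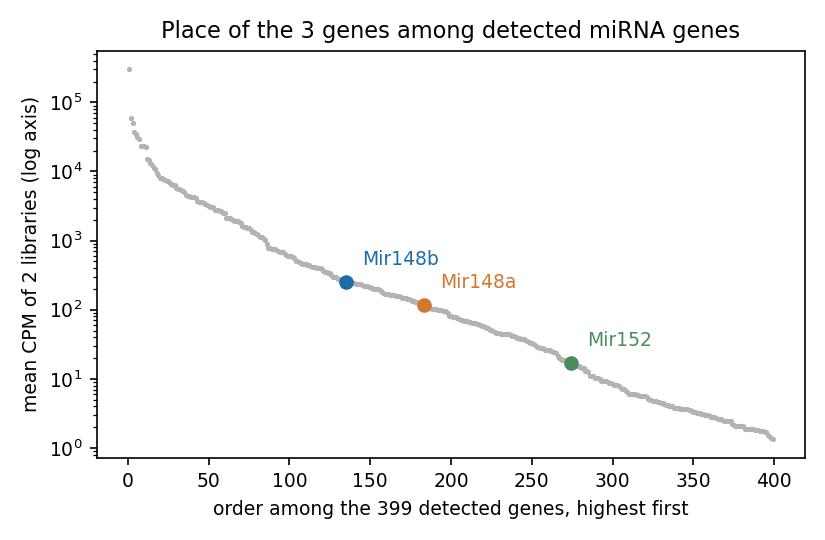
Mean CPM of the 2 libraries on a log axis for the 399 detected miRNA genes, ordered from highest to lowest, with the 3 members in colour. Mir148b stands at rank 135, Mir148a at 183 and Mir152 at 274.

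The genes nearest to each member were taken by the distance over log2(CPM + 1) in the 2 libraries. Nearest to Mir148b were Mir374b, with 293 CPM in replicate 1 and 225 CPM in replicate 2 (distance 0.036), and Mir421, with 281 and 227 CPM (distance 0.071), both on the X chromosome. Nearest to Mir148a were Mir1264, at 128 and 109 CPM (distance 0.055), and Mir670, at 135 and 106 CPM (distance 0.070). Nearest to Mir152 were Mir3059, at 17.0 and 16.9 CPM (distance 0.078), and Mir190b, at 18.5 and 17.9 CPM (distance 0.132). With 2 libraries of 1 tissue this likeness is one of level only.

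Whether the members differed between the libraries was tested gene by gene against the remaining counts (Fisher's exact test, two-sided), with Benjamini-Hochberg adjustment over the 737 genes with a count in either library. It sets 1 library against the other and takes account of counting error alone. Mir148b was 1.32-fold higher in replicate 1 than in replicate 2 (95% interval 1.24 to 1.41, Fisher's exact test, adjusted p = 5.56e-17), and Mir148a 1.23-fold higher (1.12 to 1.36, Fisher's exact test, adjusted p = 6.40e-05). Mir152 had a ratio of 1.09 that did not pass (0.845 to 1.40, Fisher's exact test, adjusted p = 0.782). At its depth a change of the size seen for Mir148b lies inside the interval for Mir152. A difference between the members was not tested.

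The 2 members called have to be read against the whole table. Of the 737 genes tested 26.3% were called, 17.0% as higher in replicate 1 and 9.36% as higher in replicate 2. The 399 genes with at least 10 counts in both libraries were also adjusted by themselves. Of these 50.9% were called, 33.1% as higher in replicate 1 and 17.8% as higher in replicate 2. Calls at this depth were therefore common. All shares of detected genes given below come from this separate adjustment, whereas the calls of listed genes come from that over 737 genes. Each of the 3 members had the same call under both. Both called members were higher in replicate 1, as were 33.1% of these 399 genes, and 3 members are too few to set against a share. With a required 2-fold difference 1.49% of the 737 genes were called and no member was. The direction of the calls over all genes depended on the scaling, with 125 genes higher in replicate 1 and 69 higher in replicate 2 as reported, 96 and 85 with TMM, 88 and 99 with median-of-ratios factors, and 97 and 84 with totals that leave out Mir99a, the most abundant gene. Median-of-ratios factors moved all log2 ratios by -0.11. Mir148b and Mir148a kept their direction and call under each of these scalings, Mir148b at 1.23-fold to 1.26-fold and Mir148a at 1.14-fold to 1.18-fold, whereas the ratio of Mir152 was 1.03 with TMM and 1.01 with median-of-ratios factors. The libraries came from forebrains collected on different days, and the day cannot be told apart from other differences between the libraries.

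**Figure D4:**
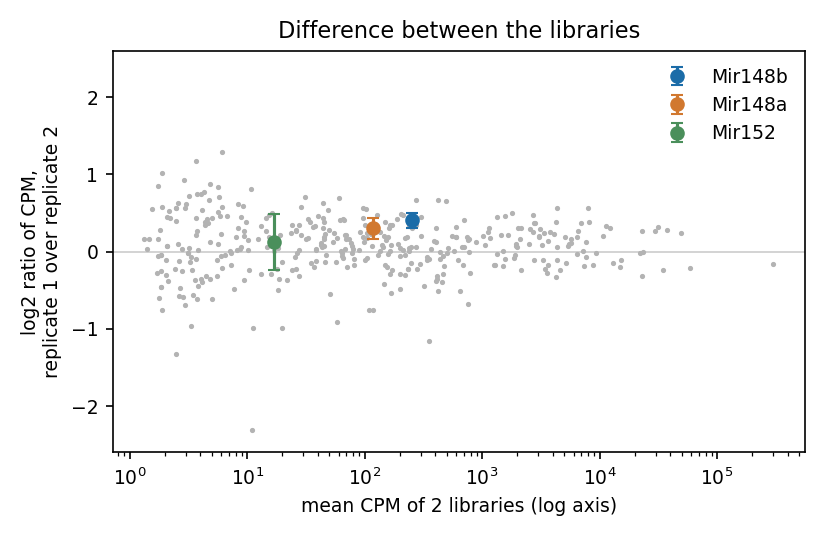
Log2 ratio of CPM, replicate 1 over replicate 2, against mean CPM on a log axis for the 399 detected genes in grey and the 3 members in colour with 95% intervals. The members lie at 0.40 (Mir148b), 0.30 (Mir148a) and 0.12 (Mir152), inside the cloud of other genes, which runs from -2.31 to 1.29.

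Markers of other cell types were at different levels in the 2 libraries as well, and their part in the members' values was not tested. Markers of liver, the organ in which Mir148a is abundant, together had 136 and 123 CPM in replicates 1 and 2 over 4 genes, of which 3 were detected. The hepatocyte marker Mir122 stood at 10.3 and 10.2 CPM and Mir192 at 53.8 and 59.3 CPM, and neither passed the test. The highest of the list, Mir194-2, stood at 71.2 and 53.5 CPM and was called higher in replicate 1 by 1.33-fold (adjusted p = 7.12e-05 in Fisher's exact test), the direction of Mir148a and Mir148b.

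Pancreas markers, another tissue with much Mir148a, together had 279 and 321 CPM in replicates 1 and 2, with all 4 genes detected and Mir375 of endocrine cells highest at 219 ± 32.9 CPM (SD, n = 2). Blood and immune markers summed to 586 and 728 CPM over 5 detected genes, led by the erythroid Mir451a at 457 ± 86.3 CPM. Epithelial markers summed to 1616 and 2147 CPM over 7 detected genes, led by Mir203 at 1294 ± 106 CPM. Smooth muscle and stromal markers summed to 3621 and 4042 CPM over 5 genes, 4 of them detected, led by Mir143 at 3612 ± 300 CPM. The endothelial Mir126a had 22103 and 22365 CPM. The summed levels of these 5 groups were each lower in replicate 1 than in replicate 2, and those of liver and neural markers (19717 and 18379 CPM) were higher in replicate 1. Mir143 made up most of the smooth muscle and stromal sum, and the endothelial group was Mir126a alone. The ratios were 1.10 for liver and 1.07 for neural markers. Median-of-ratios factors moved all log2 ratios by -0.11, and the sums were given without them. Ratios this close to 1 give no firm direction. By Fisher's exact test over all genes, 6 of the 7 epithelial genes, 2 of the 5 blood genes and 1 gene each of the pancreas, smooth muscle and endothelial lists were higher in replicate 2, and none of these lists held a gene higher in replicate 1. Beside the 17.8% of detected genes called higher in replicate 2, 1 of 4 pancreas genes and 1 of 5 smooth muscle genes are near the background. Of the liver list 1 gene was higher in replicate 1, and of the neural list 8 were higher in replicate 1 and 3 in replicate 2. Of all detected genes 33.1% were called higher in replicate 1, so 1 of 4 liver and 8 of 21 neural genes are near the background. The 3 of 21 neural genes higher in replicate 2 are near the 17.8% share as well.

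The family was set beside 3 others. The miR-26 genes lie in introns of Ctdsp genes and the miR-103 and miR-107 genes in introns of Pank genes, so these too sit in paralogous hosts. Mir130a, Mir130b and Mir301 carry a seed that overlaps that of the members with an offset of 1 base, so that the bases AGUGCA, in capitals, are shared. Only 1 arm of Mir301b was among the sequences used, and its seed does not begin with these bases. In all, 7 mature miRNAs had a seed that does. The arms of Mir130a, Mir130b and Mir301 are printed for comparison with the 3′ arms above.
mmu-miR-130a-3p: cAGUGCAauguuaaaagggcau
mmu-miR-130b-3p: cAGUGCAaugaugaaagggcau
mmu-miR-301a-3p: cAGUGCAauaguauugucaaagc

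The miR-148 and miR-152 members spanned 3.81 log2 units, from 4.17 for Mir152 to 7.99 for Mir148b on the log2(CPM + 1) scale. The miR-130 and miR-301 genes spanned 7.87 units, from 6.99 for Mir301b to 14.86 for Mir130a, and held 3.99% ± 0.582 of the counts (SD, n = 2). Their highest gene, Mir130a, stood at 29796 ± 3847 CPM, whereas the miR-148 and miR-152 genes together reached 437 and 341 CPM in replicates 1 and 2. The lowest, Mir301b at 128 ± 29.1 CPM, was close to Mir148a, with 129 and 105 CPM, beside the range of Mir301b (148.3 and 107.1 CPM in replicates 1 and 2). All 4 of these genes were called higher in replicate 1, at 1.20-fold for Mir130a to 1.41-fold for Mir301, beside 33.1% of all detected genes.

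The miR-26 family spanned 10.45 log2 units with 99.7% of its counts at Mir26b (13126 ± 908 CPM), and the miR-103 and miR-107 family 7.67 units with 97.0% in replicate 1 and 96.9% in replicate 2 at Mir107 (2022 ± 297 CPM). Both spans have to be read with a difference in sequence. Mir26a-1 and Mir26a-2 share an identical mature miRNA, and so do Mir103-1 and Mir103-2, so reads from it can map to 2 places and were then assigned to no gene. No member of the miR-148 and miR-152 family shares an identical mature sequence with another gene of the table, nor does any of the miR-130 and miR-301 genes among the arms in the table, which holds 1 arm for Mir301b. Whether their reads also match elsewhere in the genome was not tested.

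**Figure D5:**
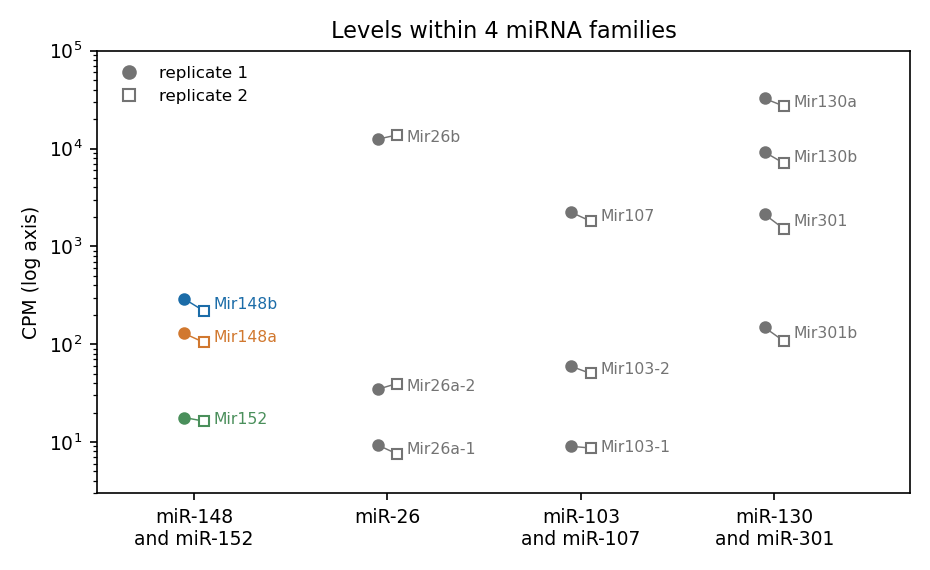
CPM on a log axis of each gene of 4 miRNA families, with filled circles for replicate 1 and open squares for replicate 2 joined by a line. The miR-148 and miR-152 genes lie closest together, from 16.4 to 291 CPM, and the lowest genes of miR-26 and of miR-103 and miR-107 are those with an identical mature sequence at 2 loci.

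Other miRNAs known to target messenger RNAs of DNA methyltransferases were taken as a list of 8 genes, with the miR-29 and miR-101 genes, Mir143 and Mir342, of which some links come from human cells. The median level over all 8 was 253 CPM, and 7 of them were detected. Mir342 stood at 6377 ± 83.5 CPM (SD, n = 2), Mir143 at 3612 ± 300 CPM and Mir101b at 1260 ± 107 CPM, all above Mir148b. Mir101a, at 341 ± 11.9 CPM, was nearer to it, and Mir29a at 166 ± 0.812 CPM and Mir29c at 91.4 ± 11.3 CPM lay on either side of Mir148a. Mir29b-1 at 1.885 ± 0.530 CPM and Mir29b-2 at 0.887 ± 0.543 CPM lay below Mir152. Whether these 2 genes share a mature sequence with another locus was not checked, so their low values do not show absence. By Fisher's exact test (adjusted), 1 of the 8 was higher in replicate 1, 3 were higher in replicate 2 and 4 did not pass. The 3 that were higher in replicate 2 were Mir101b, Mir143 and Mir342, at ratios of 0.887, 0.889 and 0.982. Of all detected genes 33.1% were called higher in replicate 1 and 17.8% higher in replicate 2.

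To show what the shared seed pairs with, the 3′ untranslated regions of 4 genes known as targets of the family were searched for TGCACTG, the DNA complement of the seed read 5′ to 3′, on the messenger strand. The longest region among the basic GENCODE M21 transcripts of each gene was used. All 4 held at least 1 match, and 3 held the longer form TGCACTGA, which contains the first motif. Across 20972 protein-coding genes 12.7% held TGCACTG and 3.58% held TGCACTGA. The 4 genes were picked as known targets, so their matches cannot test for an excess over these shares. A match is a run of letters and not a measured site, and no messenger RNA was measured here.

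One match per gene is printed for the 3 genes with the longer form, in capitals within 26 bases of sequence from GENCODE M21 transcripts, 5′ to 3′ on the messenger strand. The windows lie on mm10 at chr9:20907484-20907509 (Dnmt1, minus strand), chr6:67035613-67035638 (Gadd45a, a growth arrest gene, minus strand) and chr2:128162398-128162423 (Bcl2l11, which encodes the pro-apoptotic protein Bim, plus strand).
Dnmt1: agagccccacgTGCACTGAtgttttt
Gadd45a: ctgaaccaaatTGCACTGAagttttg
Bcl2l11: cctttacgtttTGCACTGAtgaattt

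In Dnmt1 the match began 23 bases after the stop codon, in a region of 312 bases, and in Gadd45a 32 bases after it, in a region of 563 bases. In Bcl2l11 it began at base 4080 of 4218. The remaining gene, Abca1, a cholesterol exporter, held 2 matches to TGCACTG and none to the longer form. Because the seed is common to all 3 members, these letters do not distinguish Mir148b, with most of the family's counts, from Mir148a and Mir152.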

How the data were processed

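Small RNA inserts, given as under 30 in the labels, were sequenced from 2 forebrain libraries. The deposited values are whole-number counts per miRNA gene, 1 table per library, which the authors derived from 1 alignment file each on mm10 with GENCODE M4, as each sample's deposited README states. Aligner and counter: not given in the sources used here. Of the 3 count columns (either strand, strand of the gene, opposite strand) the second was used. The 4 lines of totals, which name no gene, entered neither library totals nor tests and held 61.9% and 61.5% of the reads in replicates 1 and 2.

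Gene names and positions came from GENCODE M21 on the same assembly, where 1894 of 1973 IDs matched, and the other 79 had at most 2 counts each. Counts were scaled to CPM. Fisher's exact tests used SciPy 1.17.1, with an adjusted p threshold of 0.05 over all genes tested, and were checked on simulated data. The simulated counts varied by counting error only, so this check does not cover the further variation between the real libraries. TMM totals came from edgeR 4.0.16 and median-of-ratios totals from DESeq2 1.42.0. A pseudocount of 1 was used for log2(CPM + 1). Named genes are the members, the 2 nearest genes to each, the members of the compared families, and the highest gene of each marker list. Mir99a, the other liver and neural markers named and the genes of the list of miRNAs that target DNA methyltransferases fall outside this rule and were chosen after their values were seen. Genes named only for their position (hosts and nearest neighbours) or as targets also fall outside it, and no level is given for them. Some targets of the family, and a list tied to one of them, are not reported here. The members, lists and tests were chosen with earlier results of these data known. Alternatives covered scaling, strand, filters, fold, pseudocount, gene length and leaving out a replicate.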

Additional observations from a re-analysis of the deposited data

How the results depend on the processing

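The order of the members held in every alternative run. Totals without Mir99a gave mean levels of 167 CPM for Mir148a, 364 CPM for Mir148b and 24.4 CPM for Mir152 and a family share of 0.0555%. With all reads as the total these were 44.7, 97.6 and 6.54 CPM and 0.0149%. Per 100 bases of gene, the mean ratio of Mir148a to Mir152 was 5.03, against 6.82 per locus, and that of Mir148b to Mir152 was 11.2, against 14.9. A fold minimum ended the calls of Mir148a (1.23-fold) and Mir148b (1.32-fold) and left 26 genes at 1.5-fold and 11 at 2-fold, against 194 with none. Over the 7 alternatives of scaling, filter and strand, the ratio of Mir148a ran from 1.14 to 1.23 (adjusted p in Fisher's exact test from 3.49e-05 to 0.0250), that of Mir148b from 1.23 to 1.32 and that of Mir152 from 1.01 to 1.09 with no call. A minimum of 1 count raised the detected genes to 634 and left the 3 members detected. With a pseudocount of 5 the log2 level of Mir152 was 4.46, against 4.17. The denominators using TMM and median-of-ratios totals for the family share were chosen after seeing the data. With 2 libraries, leaving out either gives the value of the other.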
